A study of Mus musculus with 49 samples.

Results

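Epididymal white adipose tissue (eWAT), a visceral fat depot attached to the epididymis, was compared between 2 inbred mouse strains, 129S1/SvImJ and C57BL/6, fed a low fat control diet without drug. The comparison holds 8 of the 49 samples of the series, which are all the control diet libraries of its rosiglitazone experiment, 4 from 129S1/SvImJ and 4 from C57BL/6. Both groups ate the purified low fat diet D12450B from 6 to 16 weeks of age and then the same diet for 2 more weeks, until 18 weeks of age, so 12 weeks in all. The labels give no allele, transgene or agent beyond strain and diet for either group, and the strains differ at many places in the genome at once. Libraries were made from RNA of the whole depot, which holds adipocytes together with blood vessels, immune cells, connective tissue and the mesothelium on its surface. Values from other eWAT groups of the same strains are set beside those of the control diet. These were 129S1/SvImJ and C57BL/6 mice whose last 2 weeks of low fat diet contained 36 mg rosiglitazone per kg (4 libraries each), mice of another experiment on low fat diet for 12 weeks (4 libraries of 129S1/SvImJ and 5 of C57BL/6), and mice on chow (5 libraries each). Whether each library stands for its own mouse is not said in the labels, so a p-value here reflects the scatter among libraries, and part of that may be technical. The library numbers of the strains form separate runs, and no source used here says whether both strains were collected and prepared together, so strain and preparation cannot be told apart.

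White fat stores triglyceride in large lipid droplets. Adipocytes take up fatty acids from the blood or make them from glucose by way of cytosolic citrate, join them to glycerol 3-phosphate, and release them again by lipolysis. The nuclear receptor PPARG drives the formation of adipocytes and much of this programme, while SREBP factors drive fatty acid and sterol synthesis and follow insulin and cellular sterol. Mitochondria of white adipocytes supply the ATP and citrate that this synthesis uses. C57BL/6 is the strain most often used as a model of obesity on rich diets, and 129 substrains are known as less prone to it.

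The 8 libraries were alike in the totals of their deposited values. These values are normalized numbers with a floor of 1, and their sums per library lay between 5538820 and 5542536, so sequencing depth is unknown. Of 28644 transcript rows, 15.2% to 20.3% stood at the floor in 129S1/SvImJ libraries and 18.3% to 22.6% in C57BL/6 libraries. Pearson correlation of log2(value + 1) was 0.953 to 0.985 between libraries of a strain and 0.932 to 0.945 between strains. Adipocyte genes were abundant in every library. Adiponectin (Adipoq) had 14393, 14393, 13828 and 15186 in 129S1/SvImJ and 18383, 13828, 15186 and 15186 in C57BL/6, a log2 difference of -0.11 ± 0.12 (SE) that limma did not call (adjusted p = 0.616). With the trend over transcript length described next removed, Adipoq was called lower (-0.40 ± 0.09, limma adjusted p = 0.00511). Genes of neighbouring tissue were low. None of 16 epididymal genes reached a mean of 10, and their values summed to 26 to 36 in 129S1/SvImJ and 20 to 27 in C57BL/6. Summed values of 14 skeletal muscle genes were 277 to 486 in 129S1/SvImJ and 356 to 564 in C57BL/6, and Ckm, the muscle creatine kinase, lay between 1 and 9 in all 8. Those of 11 mesothelial genes spread most, 1862 to 3068 in 129S1/SvImJ and 488 to 3605 in C57BL/6, and no mesothelial gene was called.

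One property of the transcripts moved with strain across the whole table and touches every gene group below. Among 12475 genes with a known transcript length and a mean of at least 10, short transcripts tended to be higher in 129S1/SvImJ and long ones lower, with a Spearman correlation across genes of -0.37, as a description only since genes of a library are not independent. The median log2 difference was 0.41 for the 755 genes under 1000 bases and -0.23 for the 1546 genes of 6000 bases or more. In the shortest class 36.8% of genes were called higher and 5.03% lower in 129S1/SvImJ, and in the longest 4.79% were called higher and 31.2% lower. Within each library the short class stood above the long class by 0.16 to 0.31 log2 units in 129S1/SvImJ and by -0.54 to -0.18 in C57BL/6, with no overlap. The Spearman correlation had the same sign under rosiglitazone (-0.29) and on chow (-0.25), and was close to 0 in the 12-week experiment (0.02). Libraries of the strains overlapped in these groups. Under rosiglitazone the short class stood above the long by -0.10 to 0.52 in 129S1/SvImJ and -0.32 to 0.04 in C57BL/6. On chow these were -0.35 to 0.47 and -0.47 to 0.03. The 12-week difference had a trend of its own over the GC content of transcripts, with a Spearman correlation of -0.40 across genes, against 0.01 on the control diet. The part of the trend in each gene's difference was not tested, and counts for each list are therefore also given after the trend of each library was removed by a smooth curve over log2 length.

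**Figure D1:**
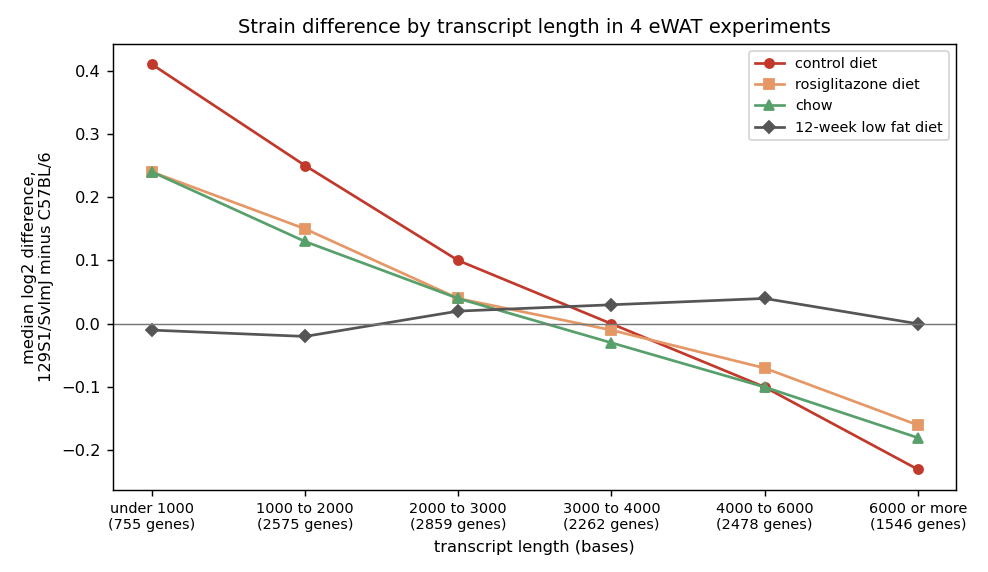
Median log2 difference between 129S1/SvImJ and C57BL/6 eWAT (vertical axis) for genes in 6 classes of transcript length (horizontal axis, bases, with the number of genes), in 4 experiments. On the control diet the medians run from 0.41 in the shortest class to -0.23 in the longest, while those of the 12-week low fat diet stay between -0.02 and 0.04.

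The strains differed in a large share of genes. Of 22869 genes, limma called 4004 at an adjusted p under 0.05 (17.5%), of which 2288 were higher in 129S1/SvImJ (10.0%) and 1716 lower (7.50%). Of the 12694 genes with a mean of at least 10, which make up most members of most lists below, 16.4% were called higher and 12.9% lower. Most differences were small: the median fold was 1.52 among genes called higher and 1.57 among genes called lower, and 445 genes called higher and 398 called lower reached 2-fold. For 4020 genes (17.6%) no value of a strain overlapped those of the other. With the length trend removed, 1607 of all 22869 genes were called higher and 1829 lower. Among the 12694 genes with a mean of at least 10 these were 1488 (11.7%) and 1441 (11.4%). Of the 4004 calls without that removal 1349 higher and 1237 lower remained, with 0 in the opposite direction. Whichever single library was left out, 2456 of the genes stayed called, 1386 higher and 1070 lower. In whole tissue, fewer cells of a type and less RNA per cell cannot be told apart, for this and for every result that follows.

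The largest differences belonged to genes with values well above the floor in 1 strain and near it in the other. The size of such a difference depends on the pseudocount of 1. How well reads of each strain matched the reference genome, and whether related genes shared reads, was not tested. Slc7a11, the cystine and glutamate exchanger that feeds glutathione synthesis, had 267, 273, 283 and 220 in 129S1/SvImJ and 9, 9, 9 and 6 in C57BL/6 (4.83 ± 0.22). Gchfr, the feedback regulator of tetrahydrobiopterin synthesis, had 153, 137, 162 and 136 in 129S1/SvImJ and 2, 2, 10 and 3 in C57BL/6 (5.05 ± 0.41). Both were named by a rule that took only genes without overlap between strains, so their separation follows from the choice. Gdpd3, a lysophospholipase D, had 208, 224, 199 and 201 in 129S1/SvImJ and 12, 10, 10 and 6 in C57BL/6 (4.35 ± 0.20). Cd1d2, an antigen-presenting CD1 molecule, had 90, 110, 100 and 101 in 129S1/SvImJ and 4, 2, 5 and 5 in C57BL/6 (4.39 ± 0.23). Mettl7a2, a membrane-bound methyltransferase-like protein, had 59, 49, 49 and 54 in 129S1/SvImJ and 2, 1, 1 and 4 in C57BL/6 (4.27 ± 0.36). The histidine ammonia lyase gene Hal (5.31 ± 0.34) and the interferon-induced GTPase gene Gbp1, now named Gbp2b (4.73 ± 0.28), belonged to the same kind. Serpina1b, an alpha-1 antitrypsin, was less even: it had 527, 423, 967 and 409 in 129S1/SvImJ, and 6, 3, 265 and 7 in C57BL/6 (5.13 ± 1.00), so that 1 C57BL/6 library stood far above the other 3 and still below every 129S1/SvImJ library. It is 1 of several near-identical copies in the mouse genome and its value is uncertain. The largest adjusted p of these 8 genes by limma was 0.00334, that of Serpina1b.

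Among genes lower in 129S1/SvImJ, Trim12a, one of the antiviral TRIM5-like genes, was at or next to the floor, with 1, 1, 1 and 2 in 129S1/SvImJ and 62, 66, 57 and 62 in C57BL/6 (-4.82 ± 0.27). Trim30d, a TRIM gene of the same cluster on chromosome 7, had 3, 2, 6 and 5 in 129S1/SvImJ and 60, 65, 68 and 48 in C57BL/6 (-3.68 ± 0.26). Pttg1, the securin that holds sister chromatids together until anaphase, had 10, 6, 9 and 3 in 129S1/SvImJ and 118, 104, 94 and 104 in C57BL/6 (-3.83 ± 0.30). These genes too were picked as large differences without overlap between strains, so the separation of their libraries follows from that choice. Unc5a, a netrin receptor (-4.10 ± 0.22), and Disp2, a relative of the hedgehog transporter Dispatched (-3.27 ± 0.28), were also lower. Stbd1, a glycogen-binding protein, had 6, 5, 3 and 7 in 129S1/SvImJ and 32, 60, 63 and 59 in C57BL/6 (-3.12 ± 0.28). Inmt, a thioether and indole methyltransferase, had 40, 92, 22 and 31 in 129S1/SvImJ and 549, 264, 184 and 508 in C57BL/6 (-3.06 ± 0.41). Values of Inmt spread more within a strain than those of the other genes here. The largest adjusted p of these 7 genes by limma was 1.82e-04, that of Inmt.

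The other experiments, whose libraries are separate except that the rosiglitazone libraries share the fit, gave similar values for most of these genes. In the 12-week experiment the log2 difference was 4.07 ± 0.29 for Slc7a11, 4.96 ± 0.32 for Gchfr and -4.22 ± 0.24 for Pttg1, each called by limma. On chow it was 4.23 for Slc7a11 and -3.77 for Pttg1, both called, and 3.52 for Gchfr, which was not. Inmt was -1.59 ± 0.36 in the 12-week experiment and called, and -0.80 on chow and not called. The chow values include 2 libraries of 129S1/SvImJ that held epididymal transcripts, described at the end, and more genes were called on chow without them.

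Some of the largest values belong to genes with near-identical copies, where a read may be assigned to either copy, and are uncertain. Rprl3, an RNase P RNA-like gene, had 781, 721, 492 and 532 in 129S1/SvImJ and 6, 1, 4 and 7 in C57BL/6. The ribosomal protein genes Rpl29 (-4.67 ± 0.29) and Rps3a (-4.07 ± 0.20) were called lower in 129S1/SvImJ. The complex I subunit gene Ndufs5 had 5, 2, 5 and 2 in 129S1/SvImJ and 54, 51, 59 and 61 in C57BL/6, whereas the row BC002163, which the gene table names as its pseudogene Ndufs5-ps, had 127, 127, 137 and 114 in 129S1/SvImJ and 3, 5, 8 and 2 in C57BL/6. The parent gene and its copy thus stood the opposite way round in the strains.

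**Figure D2:**
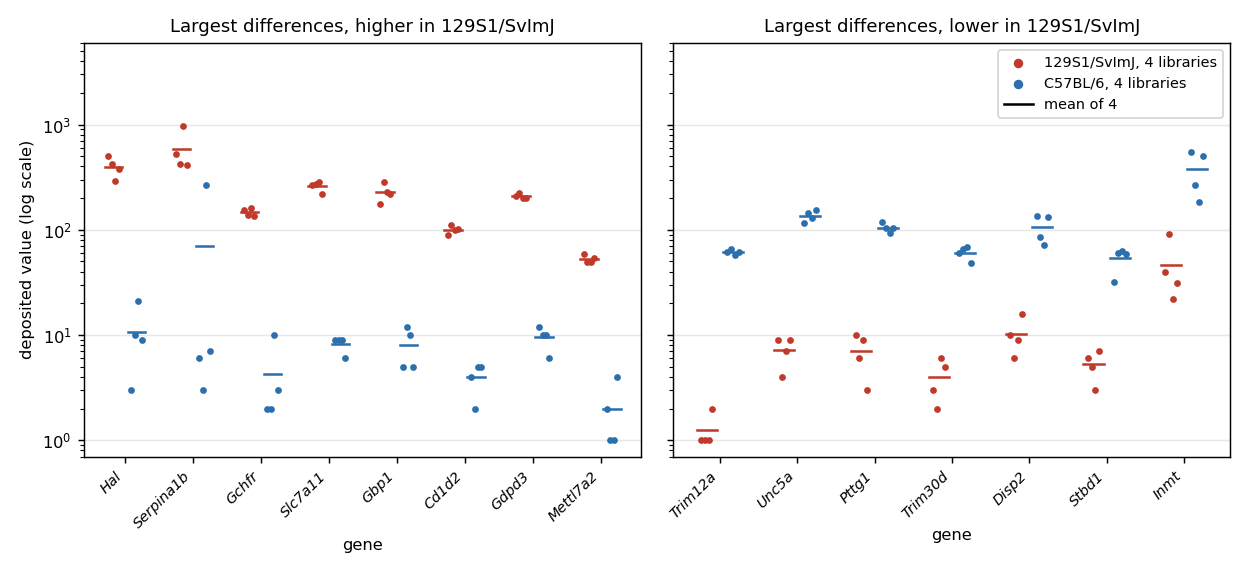
Deposited normalized values (vertical axis, log scale) of genes among those with the largest differences in eWAT on control diet, 129S1/SvImJ libraries left and C57BL/6 libraries right of each gene name, 1 point per library, with a bar at the mean of 4. Slc7a11 lies between 220 and 283 in 129S1/SvImJ and between 6 and 9 in C57BL/6, and 1 C57BL/6 library of Serpina1b stands at 265 against 3 to 7 in the other 3.

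Among the most abundant genes the differences were modest and most belonged to the adipocyte lipid programme, the cytoskeleton or the matrix. Cav1, the coat protein of the caveolae that cover adipocyte membranes, had 22383, 23240, 19711 and 19711 in 129S1/SvImJ and 12665, 12100, 13828 and 11674 in C57BL/6 (0.76 ± 0.10). Dgat2, which adds the last fatty acid to triglyceride, had 23240, 16066, 17219 and 17219 in 129S1/SvImJ and 10236, 11028, 11028 and 10236 in C57BL/6 (0.78 ± 0.13). Vim, the intermediate filament vimentin around lipid droplets, had 12430, 13106, 11028 and 12665 in 129S1/SvImJ and 6133, 5901, 7258 and 5465 in C57BL/6 (1.00 ± 0.11). The strains did not overlap in these 3 genes. Also higher were the droplet proteins Cidec (0.35 ± 0.09) and Plin1 (0.48 ± 0.11), the monoglyceride lipase Mgll (0.26 ± 0.08), the lipogenic nuclear protein Thrsp (0.98 ± 0.26), the ATP synthase subunit Atp5b (0.52 ± 0.11) and the fibrillar collagen Col3a1 (1.25 ± 0.28), with a largest limma adjusted p of 0.0212, and Fasn, described with its pathway. After removal of the length trend, Cidec and Thrsp were not called.

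Of abundant genes lower in 129S1/SvImJ, Slc1a5, a glutamine and neutral amino acid transporter, had 5000, 4350, 4230 and 4230 in 129S1/SvImJ and 7258, 9023, 8024 and 9191 in C57BL/6 (-0.91 ± 0.11, limma adjusted p = 9.87e-06). Trf, the iron carrier transferrin, had 9517, 7128, 8426 and 9517 in 129S1/SvImJ and 16066, 14393, 16066 and 22383 in C57BL/6 (-0.98 ± 0.19, limma adjusted p = 0.00155). Neither gene overlapped between strains, and both were lower and called in the 12-week experiment as well (Slc1a5 -1.48 ± 0.11, Trf -1.39 ± 0.15). Hspg2, the basement membrane proteoglycan perlecan (-0.85 ± 0.15), and the long cytoskeletal linker genes Dst (-0.73 ± 0.13) and Tns1 (-0.53 ± 0.09) fell too, of which Tns1 was not called after removal of the length trend. The spectrin gene Spnb2 (-0.39 ± 0.13), the acyl-CoA synthetase gene Acsl1 (-0.40 ± 0.13) and the lysosomal prosaposin gene Psap (-0.33 ± 0.11) overlapped between strains and stayed called in 2, 3 and 3 of the 8 fits that left a library out. The non-coding RNAs Rmrp (-0.64 ± 0.15) and Rpph1 (-0.82 ± 0.22), of the RNase MRP and RNase P complexes, are structured and short. Scd1, the desaturase that makes oleate, stood at the shared ceiling of 231290 in all 8 libraries, where no difference could be seen.

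Genes that make fatty acids were higher in 129S1/SvImJ. Of 19 genes of fatty acid synthesis 8 were called higher and 1 lower, with a median log2 difference of 0.45, against 10.0% and 7.50% and a median of 0.01 over all genes. A mean of at least 10 was reached by 18 of the 19. Over all genes with such a mean the shares were 16.4% and 12.9% and the median 0.04. With the length trend removed 5 were called higher and 1 lower. Scd2, a stearoyl-CoA desaturase, had 6303, 5410, 8225 and 5818 in 129S1/SvImJ and 1093, 2378, 3153 and 2132 in C57BL/6 (1.64 ± 0.35). Slc25a1, which exports citrate from mitochondria, had 2153, 1359, 1935 and 1478 in 129S1/SvImJ and 626, 835, 785 and 1200 in C57BL/6 (1.02 ± 0.19). The strains did not overlap in either gene, and the first C57BL/6 library was the lowest of all 8 in both. Fasn, the fatty acid synthase, had 69086, 32609, 69086 and 58431 in 129S1/SvImJ and 8131, 34653, 22134 and 37581 in C57BL/6 (1.32 ± 0.42, limma adjusted p = 0.0446). Its strains overlapped, and it stayed called in 4 of the 8 fits that left a library out, with the largest adjusted p at 0.111. Acss2, which activates acetate, had 1368, 1005, 3187 and 1220 in 129S1/SvImJ and 321, 619, 753 and 997 in C57BL/6 (1.29 ± 0.41, limma adjusted p = 0.0467), and stayed called in 2 of them. Acly, which splits citrate into acetyl-CoA, was not called, at 6617, 3226, 7164 and 5706 in 129S1/SvImJ and 906, 2596, 2344 and 4832 in C57BL/6 (1.26 ± 0.44, limma adjusted p = 0.0719). The desaturase Fads3 was the member called lower (-0.38 ± 0.11).

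Sterol synthesis was also higher, and triglyceride assembly in part. Of 24 genes of sterol synthesis and uptake 13 were called higher and none lower, with a median of 0.65, and 11 and none with the length trend removed. They lay at several steps, from the mevalonate enzymes Mvk (0.98 ± 0.16) and Pmvk (1.22 ± 0.18) through the isoprenoid enzyme Fdps (1.39 ± 0.27) and the squalene enzymes Sqle (1.15 ± 0.21) and Lss (0.87 ± 0.17) to Nsdhl, which removes methyl groups from the sterol ring (1.50 ± 0.20). Insig1, which holds back the SREBP machinery and is itself a target of it, had 1421, 1058, 1460 and 1161 in 129S1/SvImJ and 643, 482, 879 and 434 in C57BL/6 (1.11 ± 0.24). The strains did not overlap in any of these 7 genes, with a largest limma adjusted p of 0.00414. Of 15 triglyceride synthesis genes 5 were called higher and 1 lower, with a median of 0.26, and the same numbers were called with the length trend removed. Gpd1, which makes glycerol 3-phosphate, had 8426, 7258, 9909 and 8635 in 129S1/SvImJ and 3853, 4519, 5081 and 5081 in C57BL/6 (0.89 ± 0.12). Agpat2, the acyltransferase lost in a form of human lipodystrophy, had 2663, 2116, 2487 and 2081 in 129S1/SvImJ and 1154, 1037, 1194 and 1268 in C57BL/6 (1.00 ± 0.12), and the acyltransferase Agpat9, now Gpat3, was higher too (0.90 ± 0.15). Aqp7, the channel through which adipocytes release glycerol, was the member called lower, with 769, 862, 808 and 728 in 129S1/SvImJ and 1472, 1475, 1288 and 1114 in C57BL/6 (-0.75 ± 0.10). The largest limma adjusted p of these 4 genes was 2.56e-04, and none of them overlapped between strains.

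Glycolysis and NADPH supply moved the same way. Of 17 genes of glycolysis and glucose uptake 10 were called higher and 1 lower, with a median of 0.48, and 9 and 1 with the length trend removed. Their values summed to 18155 to 24321 in 129S1/SvImJ and 10564 to 12467 in C57BL/6. Aldoa, the aldolase, had 7918, 8024, 11674 and 7713 in 129S1/SvImJ and 3264, 3836, 3563 and 4308 in C57BL/6 (1.22 ± 0.13). Pkm2, the row for pyruvate kinase Pkm, had 1815, 1660, 2370 and 1809 in 129S1/SvImJ and 854, 1022, 1012 and 1016 in C57BL/6 (0.96 ± 0.12). Neither gene overlapped between strains. Tpi1 (0.82 ± 0.12), Gpi1 (0.73 ± 0.10) and Ldha (0.52 ± 0.10) rose as well, and so did Slc2a4, the insulin-responsive glucose transporter GLUT4, with 1050, 1104, 1292 and 1185 in 129S1/SvImJ and 786, 742, 531 and 1107 in C57BL/6 (0.59 ± 0.15, limma adjusted p = 0.0105). Many glycolytic genes have processed copies in the genome, Gapdh stood at only 7 to 12 in all 8 libraries, and Eno1 was called lower (-0.85 ± 0.15), so these rows are uncertain. Of 9 genes of the pentose phosphate path and NADPH supply 6 were called higher and none lower, and 5 and none with the length trend removed. They included Tkt (0.98 ± 0.24), Taldo1 (0.85 ± 0.11) and Idh1 (0.72 ± 0.10). Nnt, the mitochondrial transhydrogenase, which carries a deletion in the C57BL/6J substrain, had 221, 237, 229 and 275 in 129S1/SvImJ and 117, 111, 105 and 142 in C57BL/6 (1.02 ± 0.11, limma adjusted p = 2.13e-06). The labels do not name the substrain.

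For these 5 lists the control diet and the 12-week experiment gave different pictures, although both were low fat diets of 12 weeks. The library numbers of the strains form separate runs in the 12-week experiment as well, so strain and preparation cannot be told apart there either. Of the 42 genes called higher on the control diet, 34 lay below 0 in the 12-week experiment, 20 of them called lower there, and 3 were called higher. Fasn was 1.32 ± 0.42 on the control diet and -1.99 ± 0.34 in the 12-week experiment. Slc25a1 was 1.02 ± 0.19 on the control diet and -1.37 ± 0.25 there, and Thrsp 0.98 ± 0.26 and -1.72 ± 0.29. In the 12-week experiment 11 of 19 fatty acid synthesis genes and 9 of 24 sterol genes were called lower in 129S1/SvImJ, beside 10.2% of all genes. The tables of the experiments were normalized separately and no library is shared, so the values stand side by side with no test between them, and the part of the length trend of the one and the GC trend of the other was not tested. A 12-week C57BL/6 library (replicate 3) held skeletal muscle transcripts, with Ckm at 1414 against 1 to 44 in the other 8 libraries of that experiment. Without it 11 fatty acid synthesis genes and 8 sterol genes were called lower, whereas the 7 glycolytic genes called lower became 3. The 3 genes called higher in both were Nnt, at 0.96 ± 0.08 in the 12-week experiment, Agpat9, at 0.98, and the phosphoglycerate kinase gene Pgk1, at 0.74 ± 0.21.

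**Figure D3:**
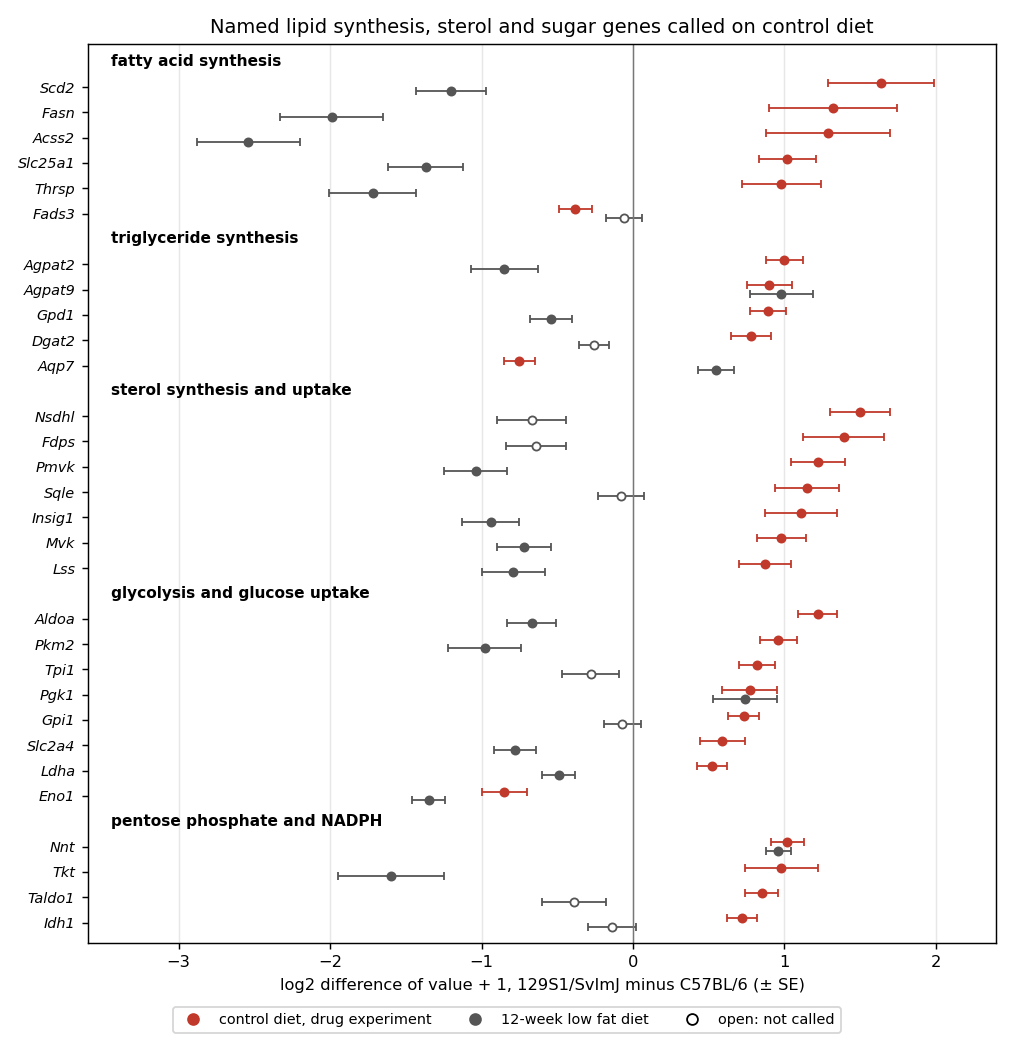
Log2 difference between 129S1/SvImJ and C57BL/6 (horizontal axis, with its SE) of the 30 genes of 5 lists named here that were called in eWAT on control diet, for the control diet (upper point of each gene) and the 12-week low fat diet experiment (lower point); open points were not called. Of the 27 genes drawn that were higher on the control diet, 24 lie left of 0 in the 12-week experiment.

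Rosiglitazone was the only condition in which the strain difference itself could be tested for change, by the interaction in the common fit. It was called for 48 of 22869 genes (0.210%), in the positive direction for 0.0743% and in the negative for 0.136% of all genes, and 4 of these were among the 24 sterol genes. Nsdhl was 1.50 ± 0.20 without and -0.17 ± 0.20 with the drug (interaction -1.67 ± 0.29, limma adjusted p = 0.0157). Lss (-1.13 ± 0.24, limma adjusted p = 0.0494) and Sc5d (-0.99 ± 0.20, limma adjusted p = 0.0404) were also among them, and Sc5d had not been called on the control diet. The difference in Gpd1 was 0.89 ± 0.12 without and -0.08 ± 0.12 with the drug (interaction -0.96 ± 0.17, limma adjusted p = 0.0157), and that in Cav1 0.76 ± 0.10 and 0.11 ± 0.10 (interaction -0.65 ± 0.14, limma adjusted p = 0.0484). Mgll went the other way, with 0.26 ± 0.08 without and 0.77 ± 0.08 with the drug (interaction 0.51 ± 0.11, limma adjusted p = 0.0494). The number of interactions called depended on single libraries, between 21 and 76 when each control diet library was left out, and was 7 without trend and robust moderation.

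Uptake and binding of fatty acids did not follow their synthesis. Of 16 genes 2 were called higher and 4 lower, with a median of -0.26, and 1 and 6 with the length trend removed. Slc27a1, the insulin-responsive fatty acid transporter FATP1, had 706, 627, 599 and 572 in 129S1/SvImJ and 2781, 1995, 1574 and 2768 in C57BL/6 (-1.83 ± 0.23, limma adjusted p = 5.43e-05), without overlap. Its relative Slc27a4 was higher (0.60 ± 0.09). The scavenger receptor Cd36 had 20507, 22258, 22943 and 22943 in 129S1/SvImJ and 27695, 24828, 27695 and 21731 in C57BL/6 (-0.20 ± 0.08, limma adjusted p = 0.106) and the fatty acid binding protein Fabp4 was -0.25 ± 0.12 (limma adjusted p = 0.165). Neither was called, and Fabp4, whose transcript is short, was called lower after removal of the length trend (-0.61). Angptl4, the inhibitor of lipoprotein lipase, was called lower (-0.51 ± 0.14). Of 17 genes of lipolysis and its receptors 1 was called higher and 1 lower, and 1 and 2 with the length trend removed. Of 11 lipid droplet genes 6 were called higher and none lower, and 4 and none with the length trend removed. Plin2 (0.52 ± 0.12) lost its call with that removal (0.34, limma adjusted p = 0.0642). The others included Plin3 (0.82 ± 0.13), Bscl2, the seipin of droplet assembly (0.61 ± 0.12), and Cidea, a droplet fusion protein best known from brown fat, with 95, 116, 126 and 111 in 129S1/SvImJ and 22, 16, 11 and 15 in C57BL/6 (2.76 ± 0.22, limma adjusted p = 2.28e-08). Cidea was also called higher in the 12-week experiment (2.55 ± 0.35).

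Genes of mitochondrial respiration were broadly higher in 129S1/SvImJ, and much of the count moved with transcript length. Of 79 subunits of the respiratory chain and ATP synthase 56 were called higher and 2 lower, with a median of 0.52, and 24 and 5 with the length trend removed, with a median of 0.19. By complex, 27 of 36 genes of complex I, which takes electrons from NADH, were called higher and 2 lower, and 12 and 3 with the trend removed. For complex II, the succinate dehydrogenase, 3 of 4 were called higher, for complex III with cytochrome c 8 of 10, for complex IV, the oxidase that reduces oxygen, 8 of 13, and for ATP synthase 10 of 16, with none lower. With the trend removed these were 2, 3, 1 and 6 called higher, with 1 each of complex IV and ATP synthase lower. The median transcript of the complex I list had 760.5 bases and that of complex IV 610.0. Summed values of the complex I genes were 12011 to 13237 in 129S1/SvImJ and 7588 to 10281 in C57BL/6, without overlap.

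Single members held after the correction. Ndufa11, an accessory subunit of complex I, had 254, 253, 308 and 221 in 129S1/SvImJ and 90, 82, 97 and 111 in C57BL/6 (1.44 ± 0.17, and 1.01 with the trend removed). Cox5b, a nuclear-encoded subunit of complex IV, had 71, 88, 92 and 71 in 129S1/SvImJ and 52, 34, 28 and 45 in C57BL/6 (1.03 ± 0.17, and 0.66). Sdhb, the iron-sulfur subunit of complex II, had 829, 672, 808 and 725 in 129S1/SvImJ and 450, 417, 370 and 617 in C57BL/6 (0.73 ± 0.15, and 0.41). None of the 3 overlapped between strains, and all stayed called with the trend removed. Atp5k, a short subunit of ATP synthase, had 301, 308, 310 and 272 in 129S1/SvImJ and 179, 167, 144 and 202 in C57BL/6 (0.79 ± 0.15, and 0.44). The largest limma adjusted p of these 4 genes was 0.00208. Ndufa12 was called lower (-0.92 ± 0.24) beside Ndufs5, and overlapped between strains.

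The promoters of the respiratory list often hold the palindrome bound by NRF1, a factor known to act on nuclear genes of mitochondria. This motif, searched as GCGC, 1 base of any kind and TGCGC on both strands, was found in 19 of 72 promoters of the list with a RefSeq entry (26.4%), taken from 250 bases before to 50 after the start, and in 4.60% of all 32851 promoters of the table. A motif of SREBP factors, TCAC, 1 base of any kind and CCAC, searched likewise for the sterol list, was found in 1 of its 20 promoters, that of a gene not called, and in 1.24% of all promoters. Of the 18 respiratory genes with the NRF1 motif 11 were called higher and 1 lower, and of the 49 without it 36 and 1. The 250 bases before the start of Ndufa11 and Atp5k are shown as examples of list members that hold it and were called, from RefSeq on GRCm38.p6 in the direction of transcription with the motif in capitals. Ndufa11 lies at chr17:56717512-56717761 on the plus strand, with the motif starting 60 bases before the start, and Atp5k at chr5:108434400-108434649 on the minus strand, with the motif starting 50 bases before it.
Ndufa11: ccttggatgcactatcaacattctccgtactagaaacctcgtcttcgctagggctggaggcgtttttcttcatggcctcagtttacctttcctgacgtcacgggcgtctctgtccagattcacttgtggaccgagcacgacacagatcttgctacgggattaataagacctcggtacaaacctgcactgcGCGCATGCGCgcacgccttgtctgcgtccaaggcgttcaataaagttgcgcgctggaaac
Atp5k: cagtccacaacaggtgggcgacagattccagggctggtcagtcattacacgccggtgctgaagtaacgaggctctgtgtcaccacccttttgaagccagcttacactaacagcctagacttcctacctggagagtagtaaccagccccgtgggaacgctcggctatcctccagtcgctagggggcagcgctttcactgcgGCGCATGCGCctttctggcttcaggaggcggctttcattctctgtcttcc

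Other mitochondrial groups moved in the same direction with smaller losses on correction. Of 14 citrate cycle genes 10 were called higher and none lower, and 7 with the length trend removed. Suclg1, a subunit of succinyl-CoA ligase, had 719, 548, 642 and 591 in 129S1/SvImJ and 282, 229, 266 and 339 in C57BL/6 (1.17 ± 0.15), and Fh1, the fumarase, was 0.77 ± 0.15. Of 56 mitochondrial ribosomal proteins 27 were called higher and 1 lower, and 15 and 2 with the trend removed. Mrpl33 was higher (0.87 ± 0.12), and Mrps12 was the one called lower (-0.78 ± 0.16). Of 23 genes of mitochondrial import, chaperones and coactivators 9 were called higher, and 8 with the trend removed, among them the outer membrane import channel Tomm40 (0.73 ± 0.14) and the prohibitin Phb (0.67 ± 0.13). Of 13 genes of pyruvate handling 6 were called higher and 1 lower, and 5 and 1 with the trend removed. The pyruvate carrier subunit Brp44, now Mpc2, was higher (0.79 ± 0.13). Of the pyruvate dehydrogenase kinases, which switch that enzyme off, Pdk2 was lower (-0.73 ± 0.20) and Pdk3 higher (0.92 ± 0.18). The largest limma adjusted p among the genes named here was 0.0142.

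Fatty acid oxidation genes were called in both directions. Of 23 genes 6 were called higher and 4 lower on the control diet, and 1 and 5 with the length trend removed. All 23 had a mean of at least 10. Of all genes with such a mean 16.4% were called higher and 12.9% lower, and 11.7% and 11.4% with the trend removed. Under rosiglitazone 15 were called higher and none lower, beside 5.45% and 5.23% of all genes. The limma interaction was called for 0 of the 23, beside 0.210% of all genes. Before adjustment 16 of the 23 had a limma interaction p under 0.05, and the share of all genes with such a p was not taken. The list median was 0.15 on the control diet and 0.60 under rosiglitazone. Acadl, the long-chain acyl-CoA dehydrogenase, had 334, 349, 374 and 340 in 129S1/SvImJ and 575, 561, 632 and 510 in C57BL/6 (-0.70 ± 0.15). It was lower in every 129S1/SvImJ library than in any C57BL/6 library. Ehhadh was also lower (-0.64 ± 0.16), and the thiolase Acaa2 higher (0.68 ± 0.15). Of 16 genes of branched-chain amino acid breakdown 5 were called higher and none lower, and 2 and none with the length trend removed, with Bckdhb, a subunit of the dehydrogenase complex, at 594, 608, 582 and 559 in 129S1/SvImJ and 325, 325, 297 and 354 in C57BL/6 (0.85 ± 0.12). The largest limma adjusted p of these 4 genes was 0.00665.

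The protein machinery of the cytosol gave 2 different results under the same correction. Of 26 proteasome genes 21 were called higher and none lower, with a median of 0.55, and 13 and 1 with the length trend removed, with a median of 0.28. Their summed values were 9199 to 9836 in 129S1/SvImJ and 6044 to 7282 in C57BL/6. Psmb2, a subunit of the catalytic core, had 277, 295, 279 and 261 in 129S1/SvImJ and 176, 143, 146 and 160 in C57BL/6 (0.83 ± 0.11), and Psmd14, which removes ubiquitin at the lid, had 338, 353, 480 and 372 in 129S1/SvImJ and 242, 171, 211 and 224 in C57BL/6 (0.86 ± 0.14). Both stayed higher with the trend removed and neither overlapped between strains (largest limma adjusted p = 1.91e-04). In the 12-week experiment 4 of the 26 were called higher and 2 lower. Of 57 cytosolic ribosomal protein genes 17 were called higher and 4 lower, which became 2 and 5 with the trend removed and a median of 0.01. Many of these have near-identical copies.

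Regulators of the adipocyte differed in both directions. Pparg had 1043, 1166, 1233 and 1220 in 129S1/SvImJ and 868, 926, 853 and 1001 in C57BL/6 (0.35 ± 0.10, limma adjusted p = 0.0166). It did not overlap between strains, stayed called in 5 of the 8 fits that left a library out, and was not called after removal of the length trend (0.21). Cebpa, its partner in adipocyte formation, had 3462, 3484, 3427 and 3640 in 129S1/SvImJ and 2433, 2487, 2146 and 2695 in C57BL/6 (0.53 ± 0.08, limma adjusted p = 1.28e-04). The corepressor Ncor1, which binds PPARG without ligand, was lower, with 1011, 981, 955 and 1006 in 129S1/SvImJ and 1499, 1665, 1518 and 1617 in C57BL/6 (-0.67 ± 0.10, limma adjusted p = 8.98e-05). It stayed lower with the trend removed. Prdm16, a regulator of thermogenic adipocytes, was -0.92 ± 0.26 and was not called with the trend removed. In all, 3 of 23 adipogenic and PPAR family transcription factors were called higher and 5 lower, and 2 and 2 with the length trend removed. Beside the 3 and 5 stand 10.0% and 7.50% of all genes, and 16.4% and 12.9% of genes with a mean of at least 10, which all 23 had.

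Genes that PPARG agonists are known to raise did not move together on the control diet. Of 22 such genes 6 were called higher and 7 lower, with a median of -0.16, and 4 and 9 with the length trend removed. Of 18 insulin signalling genes 1 was called higher and 4 lower, and 2 and 2 with the length trend removed. The 4 included the receptor Insr (-0.32 ± 0.09) and its substrate Irs2, with 214, 195, 145 and 139 in 129S1/SvImJ and 401, 234, 277 and 424 in C57BL/6 (-0.92 ± 0.19). With the length trend removed Insr was not called. Of 17 adipokines 5 were called higher and 2 lower, and 2 and 3 with the length trend removed. Leptin (Lep) had 8024, 11028, 8024 and 9909 in 129S1/SvImJ and 13106, 9097, 9311 and 5176 in C57BL/6 (0.07 ± 0.29, limma adjusted p = 0.955), so the strains overlapped completely. Apln, the peptide apelin, was lower (-1.11 ± 0.25), and Nampt higher (0.59 ± 0.12). Of 20 thermogenic genes 4 were called higher and 3 lower, and 3 and 2 with the length trend removed. Ucp1, the uncoupling protein of brown and beige fat, was low, with 4, 14, 59 and 9 in 129S1/SvImJ and 4, 4, 4 and 3 in C57BL/6 (1.62 ± 0.53, limma adjusted p = 0.0444), and it stayed called in 2 of the 8 fits that left a library out. The strain difference of Ucp1 was larger on the drug, with an interaction of 4.62 ± 0.75 (limma adjusted p = 0.0157).

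Endothelial genes were lower in 129S1/SvImJ, with little change on correction. Of 21 genes 1 was called higher and 13 lower, with a median of -0.73, and 1 and 14 with the length trend removed. Their values summed to 5609 to 7085 in 129S1/SvImJ and 8892 to 13208 in C57BL/6, without overlap. Ptprb, the phosphatase that acts on TIE2 and VE-cadherin, had 1222, 971, 1348 and 1283 in 129S1/SvImJ and 2239, 3081, 2864 and 1935 in C57BL/6 (-1.05 ± 0.19). Flt1, the VEGF receptor 1, had 373, 268, 377 and 332 in 129S1/SvImJ and 562, 636, 519 and 583 in C57BL/6 (-0.78 ± 0.16). The TGF-beta coreceptor Eng had 354, 250, 286 and 252 in 129S1/SvImJ and 444, 583, 503 and 451 in C57BL/6 (-0.80 ± 0.15). All 3 were lower in every 129S1/SvImJ library than in any C57BL/6 library. The angiopoietin receptors Tie1 (-0.79 ± 0.15) and Tek (-0.73 ± 0.16), the clotting factor Vwf (-0.82 ± 0.18), the guidance receptor Robo4 (-0.97 ± 0.25) and the adhesion molecule Cdh5 (-1.24 ± 0.19) fell too, with a largest limma adjusted p of 0.0139. Lyve1, a receptor of lymphatic endothelium and of some macrophages, was the member called higher, with 268, 237, 215 and 344 in 129S1/SvImJ and 87, 118, 139 and 183 in C57BL/6 (1.04 ± 0.22). In the 12-week experiment 17 of the 21 were called lower and none higher, and 15 without the library that held muscle transcripts. Of 12 genes of vascular smooth muscle and pericytes 1 was called higher and 3 lower, and 1 and 2 with the length trend removed. Notch3, a receptor of mural cells, had 298, 246, 313 and 244 in 129S1/SvImJ and 479, 522, 472 and 501 in C57BL/6 (-0.85 ± 0.15), and the pericyte proteoglycan Cspg4 had 864, 724, 743 and 679 in 129S1/SvImJ and 269, 343, 354 and 453 in C57BL/6 (1.10 ± 0.18). The chemokine Cxcl12 was lower (-1.20 ± 0.21).

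Genes of the type I interferon response, by which cells make themselves resistant to viruses, were lower in 129S1/SvImJ. Of 27 genes 1 was called higher and 13 lower, with a median of -0.55, and 1 and 16 with the length trend removed. Summed values were 1657 to 2112 in 129S1/SvImJ and 2367 to 2775 in C57BL/6, without overlap. Rsad2, the antiviral enzyme viperin, had 18, 16, 20 and 17 in 129S1/SvImJ and 75, 99, 111 and 51 in C57BL/6 (-2.13 ± 0.36). Oas2, which makes 2-5A to activate RNase L, had 34, 34, 25 and 32 in 129S1/SvImJ and 66, 140, 102 and 86 in C57BL/6 (-1.58 ± 0.19). Oasl2, a relative of it, had 21, 33, 32 and 27 in 129S1/SvImJ and 53, 195, 144 and 82 in C57BL/6 (-1.88 ± 0.30). The 129S1/SvImJ libraries lay close together, while those of C57BL/6 spread about 2-fold or more in each, and the strains did not overlap. Ifit1, which binds foreign RNA caps, had 20, 22, 18 and 23 in 129S1/SvImJ and 50, 68, 54 and 27 in C57BL/6 (-1.16 ± 0.25). The tetherin gene Bst2 had 44, 66, 47 and 62 in 129S1/SvImJ and 116, 137, 109 and 112 in C57BL/6 (-1.12 ± 0.27). Cmpk2 (-1.32 ± 0.21), Usp18, the brake on the receptor (-0.97 ± 0.21), and the signalling factor Stat2 (-0.55 ± 0.12) fell as well, with a largest limma adjusted p of 0.00753 over these 8 genes. Xaf1, an inducer of cell death, was the member called higher, with 89, 110, 77 and 85 in 129S1/SvImJ and 47, 70, 52 and 46 in C57BL/6 (0.75 ± 0.17).

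Interferon-induced genes carry a known response element with a core of GAAA, 2 bases of any kind and GAAA again, bound by complexes that hold STAT2 and IRF9 and by other IRF factors. On either strand it was found in 10 of 22 promoters of the list with a RefSeq entry (45.5%) and in 3.44% of all 32851 promoters. Of the 10 genes with it 6 were called lower and 4 not called, and of the 9 without it 4 were called lower, 1 higher and 4 not called. Promoters of 4 genes called lower are shown, again as the 250 bases before the start from RefSeq on GRCm38.p6 in the direction of transcription, with the core in capitals on either strand. Rsad2 lies at chr12:26456453-26456702 on the minus strand, with 1 core starting 120 bases before the start, and Ifit1 at chr19:34640639-34640888 on the plus strand, with 2 cores starting 104 and 85 bases before it. Bst2 lies at chr8:71537473-71537722 on the minus strand, with 2 overlapping cores starting 130 and 124 bases before it, and Stat2 at chr10:128270248-128270497 on the plus strand, with 1 core starting 222 bases before it.
Rsad2: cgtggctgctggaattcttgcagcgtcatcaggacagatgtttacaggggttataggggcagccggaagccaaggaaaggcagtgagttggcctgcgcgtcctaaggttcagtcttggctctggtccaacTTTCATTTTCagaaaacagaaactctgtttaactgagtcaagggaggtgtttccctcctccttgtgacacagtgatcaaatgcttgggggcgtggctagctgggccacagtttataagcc
Ifit1: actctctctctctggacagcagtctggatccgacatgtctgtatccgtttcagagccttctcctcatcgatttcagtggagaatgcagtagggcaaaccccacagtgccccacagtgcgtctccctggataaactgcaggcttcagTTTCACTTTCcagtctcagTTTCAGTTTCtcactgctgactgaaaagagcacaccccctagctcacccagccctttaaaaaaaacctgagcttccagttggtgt
Bst2: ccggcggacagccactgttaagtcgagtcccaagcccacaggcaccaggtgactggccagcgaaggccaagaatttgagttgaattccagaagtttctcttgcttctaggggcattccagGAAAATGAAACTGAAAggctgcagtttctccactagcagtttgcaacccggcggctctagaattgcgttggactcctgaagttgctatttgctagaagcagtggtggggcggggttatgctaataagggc
Stat2: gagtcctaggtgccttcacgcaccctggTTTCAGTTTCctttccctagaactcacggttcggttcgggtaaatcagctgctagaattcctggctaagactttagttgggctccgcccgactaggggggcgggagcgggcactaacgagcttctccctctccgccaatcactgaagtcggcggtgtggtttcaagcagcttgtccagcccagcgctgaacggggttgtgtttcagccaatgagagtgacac

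The interferon-induced GTPases, which attack the vacuoles of intracellular pathogens, were mostly lower. Of 18 genes 2 were called higher and 11 lower, with a median of -0.68, and 2 and 9 with the length trend removed. Gbp4 had 56, 82, 63 and 48 in 129S1/SvImJ and 187, 236, 178 and 118 in C57BL/6 (-1.50 ± 0.29), and Gbp9 had 73, 92, 95 and 87 in 129S1/SvImJ and 197, 322, 217 and 150 in C57BL/6 (-1.29 ± 0.18). Irgm2, a regulator of the IRG family, had 42, 71, 38 and 53 in 129S1/SvImJ and 113, 146, 124 and 126 in C57BL/6 (-1.34 ± 0.29). The strains did not overlap in these 3 genes. The 2 called higher were Gbp1, described above among the largest differences, and Gbp2, with 513, 666, 602 and 561 in 129S1/SvImJ and 313, 345, 310 and 300 in C57BL/6 (0.88 ± 0.16). Under rosiglitazone Gbp2 was -0.24 ± 0.16 and not called (interaction -1.12 ± 0.22, limma adjusted p = 0.0384). The largest limma adjusted p of Gbp2, Gbp4, Gbp9 and Irgm2 on the control diet was 0.00347. GTPases of this family are similar in sequence and stand in clusters, so single rows may share reads. The chemokine Cxcl9, an interferon gamma target, was lower (-1.38 ± 0.30).

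**Figure D4:**
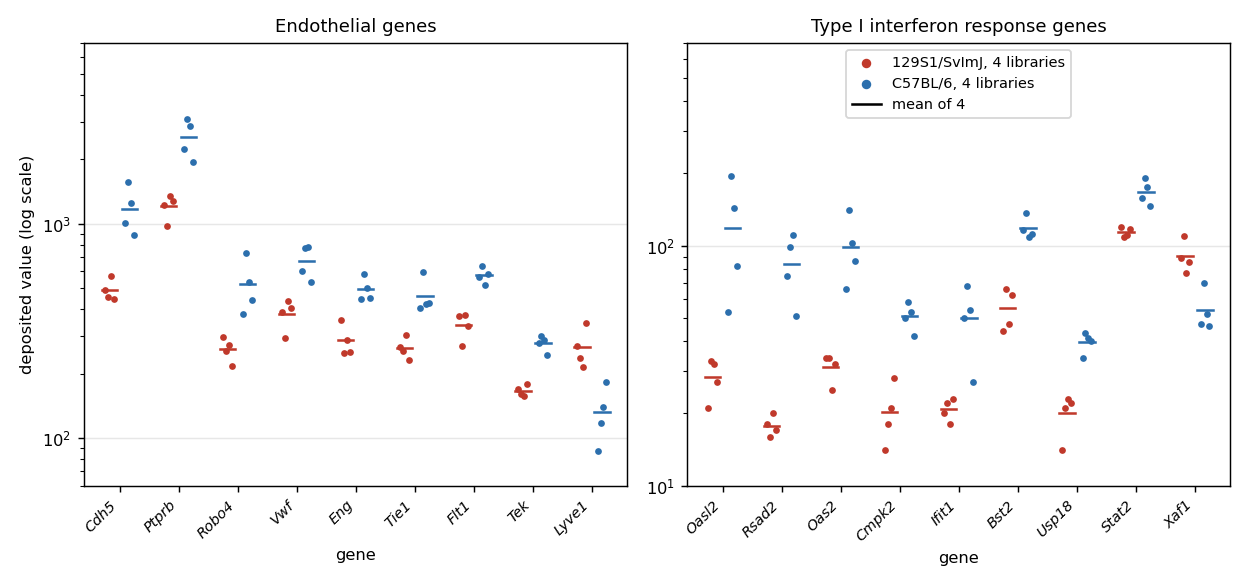
Deposited normalized values (vertical axes, log scale) of endothelial genes (left) and type I interferon response genes (right) in eWAT on control diet, 129S1/SvImJ libraries left and C57BL/6 libraries right of each gene name, 1 point per library, with a bar at the mean of 4. The C57BL/6 values stand above the 129S1/SvImJ values for every gene drawn except Lyve1 and Xaf1.

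Immune cell markers gave few calls. Of 24 macrophage genes 1 was called higher, Lyve1, and none lower, and their summed values overlapped, at 6016 to 8666 in 129S1/SvImJ and 5635 to 10210 in C57BL/6. The macrophage marker Cd68 had 146, 153, 61 and 91 in 129S1/SvImJ and 161, 48, 189 and 64 in C57BL/6. Trem2, a lipid receptor of macrophages, was the only one of 13 lipid-associated macrophage genes called, with 529, 556, 395 and 438 in 129S1/SvImJ and 70, 29, 106 and 15 in C57BL/6 (3.45 ± 0.50, limma adjusted p = 4.25e-04). The strains did not overlap, and Trem2 was higher and called in the 12-week experiment (3.59 ± 0.21) and on chow (2.88). In the 12-week experiment 9 of these 13 genes were called higher and 1 lower, beside 11.6% and 10.2% of all genes. Without the library that held muscle transcripts these were 6 and none. Under rosiglitazone 5 were called higher and none lower, beside 5.45% and 5.23% of all genes, and on chow 1 and none. None of 17 T and NK cell genes was called higher and 1 was called lower, and none of 9 B cell genes was called by limma, but only 3 of the T and NK cell genes and 2 of the B cell genes had a mean of at least 10. Over all genes 6451 had an unadjusted limma p under 0.05 for the strain difference on control diet. With the length trend removed, 1 higher and 2 lower were called in each macrophage list, 2 lower among T and NK cell genes and 1 lower among B cell genes.

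Some acute phase and complement genes were lower. Of 22 genes none was called higher and 5 lower, with a median of -0.25, and the same numbers were called with the length trend removed. The median was -0.04 over the 19 with a mean of at least 10. Of all genes with such a mean 16.4% were called higher and 12.9% lower. C4b, a complement component, had 1596, 2025, 1637 and 1517 in 129S1/SvImJ and 5962, 3909, 3785 and 4371 in C57BL/6 (-1.40 ± 0.19). Lbp, which carries bacterial lipopolysaccharide, had 253, 374, 333 and 364 in 129S1/SvImJ and 1203, 831, 934 and 572 in C57BL/6 (-1.38 ± 0.24). C6, of the membrane attack complex, had 79, 79, 106 and 116 in 129S1/SvImJ and 173, 221, 245 and 256 in C57BL/6 (-1.23 ± 0.34). The strains did not overlap in these 3 genes, with a largest limma adjusted p of 0.0187, although C4b has a near-identical neighbour, C4a. Lbp was also lower and called in the 12-week experiment (-1.95 ± 0.35), and C4b was not called there (-0.36 ± 0.27).

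Collagens ran the other way. Of 22 genes 7 were called higher and none lower, and 8 and none with the length trend removed. Col6a6, a chain of the microfibril collagen, had 441, 340, 265 and 348 in 129S1/SvImJ and 140, 107, 119 and 127 in C57BL/6 (1.48 ± 0.14), and Col12a1 had 341, 809, 306 and 514 in 129S1/SvImJ and 195, 178, 270 and 76 in C57BL/6 (1.48 ± 0.36). The main chains of collagen I were not called, with Col1a1 at 2654, 1610, 1579 and 1264 in 129S1/SvImJ and 971, 1473, 2514 and 1009 in C57BL/6 (0.31 ± 0.39, limma adjusted p = 0.684). Of 30 matrix glycoprotein and remodelling genes 5 were called higher and 3 lower, and 6 and 2 with the length trend removed. Loxl2, which crosslinks collagen, had 930, 855, 1020 and 922 in 129S1/SvImJ and 188, 256, 452 and 193 in C57BL/6 (1.86 ± 0.19). The metalloprotease Mmp2 had 327, 282, 261 and 284 in 129S1/SvImJ and 210, 96, 167 and 170 in C57BL/6 (0.89 ± 0.20). Thbs1, the matricellular thrombospondin, had 952, 1657, 731 and 815 in 129S1/SvImJ and 3100, 2216, 2682 and 2629 in C57BL/6 (-1.42 ± 0.34). None of these genes except Col1a1 overlapped between strains, with a largest limma adjusted p of 0.0107 among those called. Loxl2 was also higher and called in the 12-week experiment (1.59 ± 0.16), where Thbs1 was 0.99 ± 0.36 and not called. No adipose progenitor gene was called higher and 2 of 15 were called lower, 3 with the length trend removed.

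The remaining lists held single strong genes in groups that otherwise gave few calls. S100b, a calcium sensor of Schwann cells that adipocytes also make, had 39, 71, 37 and 61 in 129S1/SvImJ and 12, 9, 10 and 10 in C57BL/6 (2.19 ± 0.32), and Pmp22, a myelin protein also made outside nerve, had 1200, 996, 1313 and 1181 in 129S1/SvImJ and 487, 459, 549 and 563 in C57BL/6 (1.18 ± 0.12). They were the 2 of 10 Schwann and nerve genes called, beside 2 higher and 1 lower with the length trend removed. Of 19 clock genes 2 were called higher and 3 lower, and 4 and 2 with the length trend removed, with the repressor Nfil3 higher (1.29 ± 0.25). Of 20 genes of endoplasmic reticulum stress and heat shock 6 were called higher and 2 lower, and 2 and 3 with the length trend removed. The constitutive chaperone Hspa8 had 473, 414, 403 and 341 in 129S1/SvImJ and 761, 914, 940 and 971 in C57BL/6 (-1.14 ± 0.11), and has processed copies. Of 29 glutathione and antioxidant genes 7 were called higher and 1 lower, and 6 and 4 with the length trend removed. The glutathione transferase Gsta3 had 623, 608, 806 and 690 in 129S1/SvImJ and 268, 313, 320 and 388 in C57BL/6 (1.08 ± 0.20), and the extracellular superoxide dismutase Sod3 had 952, 842, 671 and 687 in 129S1/SvImJ and 2139, 1443, 1543 and 1270 in C57BL/6 (-1.01 ± 0.14). Of 22 cell cycle genes 2 were called higher and 3 lower, the same numbers as with the length trend removed, including the replication helicase subunit Mcm6 (-1.21 ± 0.24). Of 24 immediate early genes 1 was called higher and none lower, of 27 chemokine and cytokine genes 1 and 2, of 15 antigen presentation genes none and 1, and of 8 erythroid genes none and 1. With the length trend removed these were none and none, 1 and 4, none and none, and none and 2. The largest limma adjusted p of the genes named here was 0.00125, that of Mcm6.

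**Figure D5:**
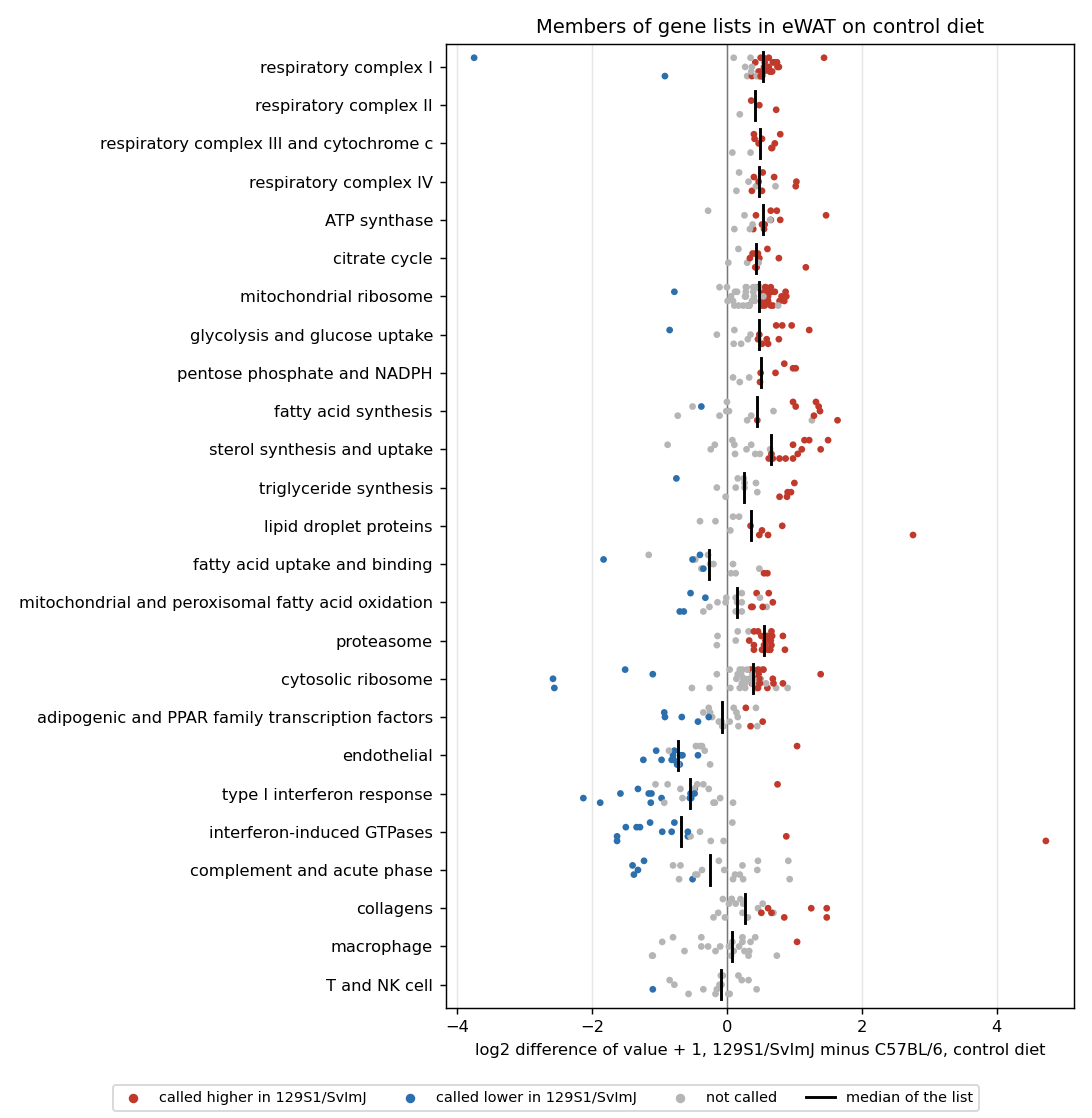
Log2 difference between 129S1/SvImJ and C57BL/6 in eWAT on control diet (horizontal axis) for the members of 25 gene lists (rows), 1 point per gene, coloured where limma called it higher or lower, with a bar at the median of the list. The respiratory, citrate cycle, mitochondrial ribosome, glycolysis, pentose phosphate, sterol and proteasome lists have medians from 0.42 to 0.65, and the endothelial list and both interferon lists have medians from -0.73 to -0.55.

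Across the whole table, the strain differences of the control diet were found again in part in eWAT of other experiments. Of the 4004 calls 1337 were called in the same direction in the 12-week experiment, which is 33.4% of the control diet calls and 26.9% of the 4971 calls there (21.7% of all genes, 11.6% higher and 10.2% lower). The opposite direction was called for 251. Without the 12-week library that held muscle transcripts, 1194 were called in the same direction and 174 in the opposite. On chow 717 of the 4004 were called in the same direction, 17.9% of the control diet calls and 62.8% of the 1142 chow calls (4.99% of all genes, 2.39% higher and 2.61% lower), and 3 in the opposite. Chow libraries 1 and 2 of 129S1/SvImJ held epididymal transcripts, with Crisp1 at 33942 and 39892 against 6 to 29 in the other 8 chow libraries. Without these 2 libraries 2597 genes were called on chow, 1454 of them in the same direction as on the control diet, which is 36.3% of the control diet calls, and 9 in the opposite. Both other experiments together held the same call for 158 genes higher and 174 lower in 129S1/SvImJ.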

How the data were processed

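RNA of whole fat pads was purified with Trizol and RNeasy columns, made into TruSeq libraries and sequenced on an Illumina Genome Analyzer, per the labels' protocols. The program HOMER and build mm9 of the mouse genome come from the list per the submitters' processing notes. No source used here gives the aligner, the counting options or the normalization. The deposited tables hold a score per transcript and library, which the authors had normalized and rounded to whole numbers with a floor of 1. Libraries of an experiment share their highest value and nearly their total. They were therefore not treated as raw counts, their depth is unknown and no counting interval was computed. The authors also deposited a log2 fold change and a p-value per transcript, which were not used, since the program behind them is not given.

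The table has 28644 transcripts of 22869 gene symbols, and each symbol was represented by its transcript of the highest sum across the 8 libraries. Values were analysed as log2(value + 1), which understates the change of low genes, with limma 3.58.1 in R 4.3.3. The 16 libraries of the drug experiment were fitted together with 1 mean per group, moderated with trend and robust settings, and the strain difference on control diet, the one on rosiglitazone and their interaction were taken as contrasts of 129S1/SvImJ minus C57BL/6. The 12-week and chow tables were fitted each on its own. Tests were two-sided, and a gene was called at an adjusted p under 0.05 (Benjamini-Hochberg, over all genes). ± marks the SE of a log2 difference. The method was tested on simulated data first.

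Members were described by 51 gene lists. The comparison and the lists were chosen with earlier results of these data known. By the rule, the named genes were the 10 largest differences in each direction without overlap and averaging 50 or more in the higher strain, the 10 most abundant called genes in each direction, the 4 smallest p-values of each list (fewer where room was short), 8 fixed genes of adipose tissue, and members that complete a pathway. List members beyond the first 4, and BC002163 and Mettl7a2, which the rule does not name, were chosen after their values were seen. Alternatives were another pseudocount, a filter on low values, other moderation, array weights, centring, another transcript per gene, the 8 libraries alone, a replicate block and leaving out each library. Removing the trend with transcript length or GC content, and leaving out libraries of the other experiments that held RNA of other tissues, were added after the data were seen. Transcript lengths came from the reference annotation, and promoters from RefSeq on GRCm38.p6. No coordinates of the mm9 files were used. Some genes that the rule names are not reported here.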

Additional observations from a re-analysis of the deposited data

Results flagged for a closer look

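In 14 of the named groups of 4 values, the gap between 1 library and the nearest of the other 3 took up most of the group's range, beyond Dixon's 95% critical value, which chance alone exceeds in about 1 in 20 groups. With 158 named genes and a group for each of the 2 strains, 14 is no more than chance alone would give. In 129S1/SvImJ replicate 3 these were Aldoa at 11674 and Fh1 at 830, both above the others. In 129S1/SvImJ replicate 1 they were Slc1a5 at 5000 and Tomm40 at 284, in replicate 2 Cidec at 28917, and in replicate 4 Trim12a and Crisp1, both at 2. In C57BL/6 replicate 1 they were Pkm2 at 854 and Stbd1 at 32, both below the others, and in replicate 2 Tie1 at 595. In C57BL/6 replicate 3 Serpina1b stood at 265, and in replicate 4 Ehhadh at 288, Slc7a11 at 6 and Ucp1 at 3. For Trim12a and Ucp1, which lay near the floor in these groups, the gap was a step of 1.

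The strain difference under rosiglitazone minus that on control diet passed the limma interaction test for Ucp1 (4.62), Mgll (0.51), Nsdhl (-1.67), Lss (-1.13), Gbp2 (-1.12), Sc5d (-0.99), Gpd1 (-0.96), Pmp22 (-0.87) and Cav1 (-0.65).

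For the following genes, some of them named above, the strains stood the opposite way round in the 12-week experiment without overlap in either experiment, a difference between experiments that was not tested. Higher on control diet, with the log2 difference of the 12-week experiment, were Acss2 (-2.54), Thrsp (-1.72), Slc25a1 (-1.37), Gsta3 (-1.31), Scd2 (-1.20), Pmvk (-1.04), Pkm2 (-0.98), Insig1 (-0.94), Cspg4 (-0.91), Agpat2 (-0.85), Lss (-0.79), Mvk (-0.72), Aldoa (-0.67), Nsdhl (-0.67), Sc5d (-0.63), Bscl2 (-0.55), Gpd1 (-0.54), Ldha (-0.49), Cidec (-0.48), Plin3 (-0.42) and Gbp2 (-0.33). Lower on control diet were Pdk2 (1.30) and Aqp7 (0.55).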

How the results depend on the processing

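The count of called genes was 4004 and lay between 3129 and 4070 when each library was left out, the lowest without C57BL/6 replicate 2. The 8 control diet libraries fitted alone gave 2966, and 21 named genes were then not called, among them Slc2a4 (limma adjusted p = 0.133), Tkt (0.113), Col12a1 (0.0984), Plin1 (0.0618) and Serpina1b (0.0542). Calls among list members were 356, between 288 and 383. With the replicate block 3964 genes were called, 357 list members and 47 interactions, and Fasn (adjusted p = 0.0548), Acss2 (0.0525) and Ucp1 (0.0534) were no longer called by limma, while Ckm was (0.0427). Deviations of libraries of the same number correlated at -0.0615, -0.0346, 0.0452 and -0.0238, and those of different numbers at -0.125 to 0.183. These values cannot show whether the numbers pair the samples. Interactions numbered 48, between 21 and 76 without single control diet libraries, with 21 without C57BL/6 replicate 1 or 129S1/SvImJ replicate 1, and 7 without trend and robust moderation. Genes called in the same direction on chow numbered 717, between 602 and 697 without single control diet libraries, and 1454 without the 2 chow libraries of 129S1/SvImJ that held epididymal transcripts, an alternative added after the data were seen, as was the removal of the length trend. Those shared with the 12-week experiment numbered 1337, between 1103 and 1297. No named gene that was called changed direction. Lep, which was not called, lay between -0.18 and 0.27 when each library was left out. The share of calls that were higher in 129S1/SvImJ was 57.1%, and 46.8% with the length trend removed. Of 146 named and called genes 115 were called in every setting. A single library ended the call of 15. Without 129S1/SvImJ replicate 3 the calls of 12 of them were lost, Fasn (adjusted p = 0.111), Acss2 (0.118), Pparg (0.0514), Ucp1 (0.0954), Fads3 (0.0632), Mgll (0.0617), Pdk2 (0.0513), Prdm16 (0.0633), Rpph1 (0.0547), C4a (0.0708), Psap (0.109) and Spnb2 (0.120). Acsl1, Angptl4 and C6 lost theirs without other libraries. The cause of these shifts was not tested. The normalized values hide depth, so near the floor a difference may not have been detectable.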
